A study of Caenorhabditis elegans with 45 samples.

Results

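The let-7 mutants A17U and A19U were compared with wild type (WT) by small RNA sequencing of whole worms (Caenorhabditis elegans) in mid L4, the last larval stage. In each mutant 1 adenosine in the 3′ part of the mature miRNA was replaced by uridine, at position 17 or at position 19 counted from the 5′ end. The 2 mutants were taken by their genotype labels and make up 6 of the 45 libraries of the series, with 3 libraries each, named A, B and C. A17U was strain VT3827 (maIs105 V; let-7(ma450) X) and A19U was strain VT3798 (maIs105 V; let-7(ma436) X). The WT strain was VT1367 (maIs105 V), also with 3 libraries. All animals thus carried maIs105 on chromosome V, known in worm genetics as an integrated col-19 reporter that marks adult epidermis, so that no strain here was without a transgene. Each mutation was represented by 1 allele in 1 strain. Worms were synchronised by hatching without food and harvested 45 h after feeding at 20 °C. The series holds 15 genotypes, WT and 14 single-nucleotide let-7 mutants. The labels do not say whether A, B and C were separate cultures. The p-values of edgeR measure the spread between libraries of a genotype, estimated over all 45 libraries. Those of permutation tests rest on the libraries compared. In both, the spread may be technical.

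let-7 is a conserved miRNA of the heterochronic pathway, the set of genes that time larval cell fates in the worm. It accumulates late in larval development and represses lin-41, whose silencing lets epidermal cells take on their adult fate. A miRNA recognises its targets mainly through the seed near its 5′ end, and for some targets, lin-41 sites among them, pairing of the 3′ part contributes as well. The changes at positions 17 and 19 lie in that 3′ part and leave the seed as it is, and the comparison asks whether they alter the amount of let-7 or of other miRNAs.

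The mature let-7 sequence occupies bases 14744234 to 14744255 of chromosome X, minus strand, in the WBcel235 annotation. It sits inside the precursor at 14744173 to 14744271 and the non-coding let-7 gene at 14743590 to 14745321. Position 17 of the miRNA is the base at 14744239 and position 19 the base at 14744237.

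The 9 libraries held between 1292194 (A17U replicate A) and 2599795 (A19U replicate B) miRNA counts, out of 2843202 to 4864567 reads of all kinds. Between 58.4% and 62.7% of reads mapped. Of the mapped reads, miRNAs took 63.3%, 87.9% and 79.1% in A17U, 88.1%, 90.6% and 82.1% in A19U, and 83.6%, 85.0% and 75.2% in WT, so A17U replicate A had the lowest share. Log2(normalised CPM + 1) of each of the 9 libraries correlated with their median across miRNAs at 0.9889 to 0.9974, and 1 library of another genotype, U9G replicate B, stood apart in the whole series at 0.868. Of 257 miRNA genes in the table, 76 were listed at 0 in these 9 libraries. Among them were lin-4, the muscle miRNA mir-1, mir-124 of neurons and mir-60 of the intestine, so the table could not be checked against these markers. The neuronal miRNAs lsy-6 and mir-791 and the glial and epidermal miRNA mir-228 were counted in all groups.

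Whether a library was mutant or wild type was read from the let-7 forms. A17U libraries A, B and C held 34490, 55684 and 63531 reads of the mutant form, against 21, 31 and 39 reads of the wild-type form. A19U libraries held 53744, 67094 and 50453 reads of the mutant form, against 65, 95 and 69 reads of the wild-type form. WT libraries held 70780, 38505 and 35166 reads of the wild-type form and were listed with 0 reads of a mutant form, although which mutant form was searched for is not stated. If a mutant form was searched for in the 3 WT libraries, such a 0 leaves room for shares below 0.00424%, 0.00779% and 0.00853%. The listed forms matched the labels, as mutant or wild type, in all 9 libraries. For the absence of a mutant form in WT this rests on that listed 0. Which mutant form was counted in each mutant is not stated either, so these counts alone do not tell A17U from A19U.

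The wild-type form made up 0.0609%, 0.0556% and 0.0613% of both let-7 forms in A17U, a mean of 0.0593% ± 0.00316 (SD, n = 3). In A19U it made up 0.121%, 0.141% and 0.137%, a mean of 0.133% ± 0.0108 (SD, n = 3). Every A17U library was below every A19U library, and the highest upper bound in A17U (0.0930%) was below the lowest lower bound in A19U (0.0948%) of the Wilson 95% intervals, which cover counting error only. The exact two-sided permutation test gave p = 0.1, the smallest that 3 against 3 libraries allow. Per 1000000 miRNA reads the wild-type form averaged 15.3 ± 1.55 in A17U and 36.8 ± 7.28 in A19U (SD, n = 3 each). Among the 14 mutants A17U had the 2nd and A19U the 7th lowest share, between U16G with 0.0458% and G11U with 35.2%. How a read was assigned to a form is not stated, and the source of these reads was not tested.

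**Figure D1:**
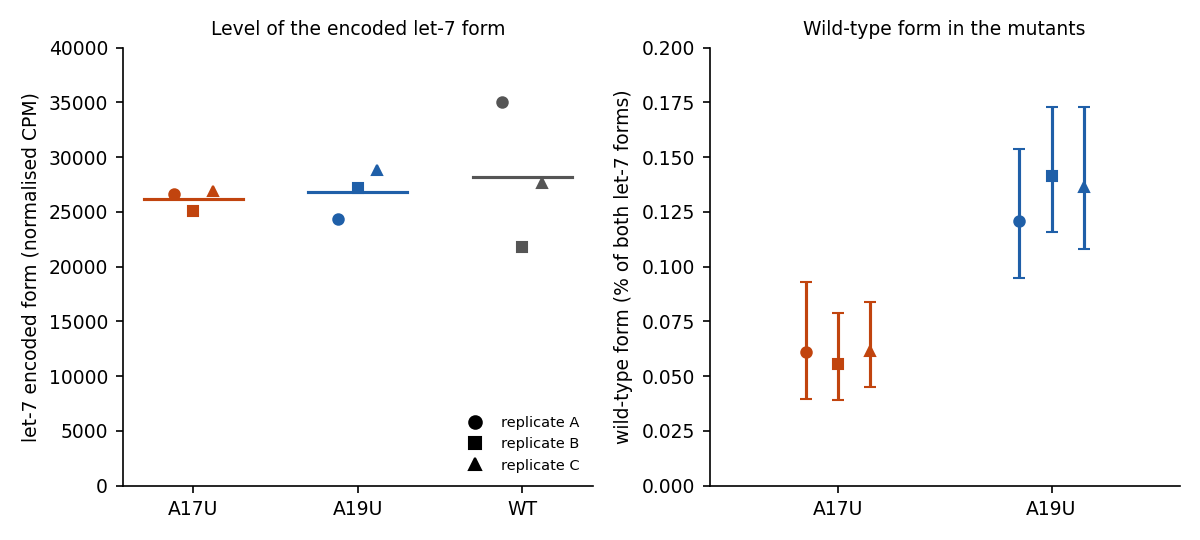
The left panel plots TMM-normalised counts per 1000000 (CPM) of the let-7 form that each genotype encodes, and the right panel the wild-type form as a percentage of both forms with Wilson 95% intervals. Symbols are replicates and horizontal bars are group means (n = 3); WT libraries span the widest range, 21761 to 35086, and the A17U shares of the wild-type form all lie below those of A19U.

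The encoded let-7 form had 26610, 25071 and 26882 normalised counts per 1000000 (CPM, scaled by the TMM method) in A17U and 24349, 27215 and 28860 in A19U, against 35086, 21761 and 27660 in WT. The highest and the lowest of the 9 values were both WT libraries, and both mutants lay within the WT range. Means were 26188 ± 977 in A17U, 26808 ± 2283 in A19U and 28169 ± 6677 in WT (SD, n = 3 each). The log2 fold change over WT was −0.11 (SE 0.246) in A17U and −0.07 (SE 0.246) in A19U, with adjusted p = 0.999 and 0.997 by edgeR's quasi-likelihood test. The 95% interval of the fold was 0.657 to 1.31 in A17U and 0.673 to 1.35 in A19U, which leaves room for a change of that size in either direction. Exact permutation tests gave p = 0.7 for A17U and p = 0.9 for A19U, where 0.1 is the smallest possible. Both comparisons used the same 3 WT libraries. In whole animals, fewer cells that make a miRNA and less of it per cell cannot be told apart. Without WT replicate A both signs turned, to 0.12 in A17U and 0.13 in A19U.

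Pooled, the 6 mutant libraries differed from WT by a log2 fold change of −0.09 (SE 0.213, adjusted p = 0.990 by edgeR), with an interval of the fold of 0.697 to 1.27 and an exact permutation p of 0.619. A17U and A19U differed from each other by −0.03 (adjusted p = 0.974 by edgeR), with an interval of the fold of 0.690 to 1.38 and an exact permutation p of 0.8. That sign also turned when A19U replicate C was left out (0.07).

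Among the 15 genotypes, ordered from low to high let-7 level, A17U was 8th, A19U 10th and WT 11th. The neighbours in this order were U16G with 25699 ± 337 CPM below A17U, A10U with 26444 ± 2054 CPM between the mutants, and U9G with 29612 ± 19193 CPM above WT, and none of these lay apart from its neighbours beyond the spread of the libraries. U18A (VT3797, maIs105 V; let-7(ma435) X), which changes the base between positions 17 and 19, had 19641 ± 1803 CPM (SD, n = 3). The A17U and A19U libraries were all above the U18A libraries, with a log2 fold change of 0.43 (SE 0.217, unadjusted p = 0.0548, adjusted p = 0.860 by edgeR). The exact permutation p of 0.0238 was the smallest that 6 against 3 libraries allow, and 0.143 after adjustment over 6 such comparisons. Against A10U (VT3836, maIs105 V; let-7(ma454) X), the A-to-U change nearer the centre of the miRNA, the log2 fold change rounded to 0.00 (exact permutation p = 0.952).

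let-7 took 2.62% of normalised miRNA counts in A17U, 2.68% in A19U and 2.82% in WT, and was the 10th most abundant of 130 miRNAs over the 9 libraries. Counts were not divided by length, and mature miRNAs are of similar length. The most abundant miRNA by its mean over the 9 libraries was mir-70, with 174955 ± 25599 CPM in A17U, 171369 ± 48189 in A19U and 190416 ± 20276 in WT. It was followed by mir-58.1, a homologue of the fly growth regulator bantam, and by lin-58, which is the gene of mir-48. In A17U alone the mean of mir-58.1 was above that of mir-70. The 10 most abundant miRNAs together took 65.6% in A17U, 65.2% in A19U and 67.2% in WT.

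The miRNA table has a let-7 row of its own, which held more reads than both forms together. The ratio was 1.21, 1.24 and 1.28 in A17U and 1.23, 1.26 and 1.23 in A19U, against 1.29, 1.28 and 1.41 in WT. All 6 mutant libraries were below all WT libraries, with an exact permutation p of 0.0238, the smallest possible, and 0.0952 after adjustment over 4 comparisons. How that row was counted is not stated, and in other mutants the ratio ran from 0.0898 in A10U to 1.47 in U21A. The encoded form was used for let-7 throughout.

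The let-7 family shares the seed of let-7 and holds lin-58 (mir-48), mir-84 and mir-241, which act earlier than let-7 on the heterochronic gene hbl-1, and mir-793, mir-794 and mir-795. None of these 6 passed the test in either mutant, against a background of 0% of 129 miRNAs other than let-7 called in A17U and 0.775% in A19U. Their log2 fold changes over WT lay between −0.08 and 0.10 in A17U with a median of 0.01, and between −0.20 and 0.29 in A19U with a median of −0.07. The medians of all 129 were 0.00 in A17U and 0.01 in A19U.

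lin-58 had 78612, 59133 and 58701 CPM in A17U and 93557, 67726 and 65526 in A19U, against 72759, 62408 and 50343 in WT. Replicate A was the highest in each group, and the ranges of the groups overlapped, although within each letter the A19U library was above the WT library (log2 fold change 0.08, SE 0.475, in A17U and 0.29, SE 0.476, in A19U). mir-84 averaged 13212 ± 1158 CPM in A17U, 11644 ± 558 in A19U and 13267 ± 1942 in WT, and mir-241 averaged 3545 ± 202, 3680 ± 656 and 3542 ± 965 CPM in the same 3 groups (SD, n = 3 each). Of the 3 rarer members, mir-795 was lower in all A19U libraries, with 398, 362 and 422 CPM, than in WT libraries, with 439, 445 and 477 (log2 fold change −0.20, adjusted p = 0.972 by edgeR). let-7 made up 24.0% ± 2.48 of the counts of its family in A17U, 22.8% ± 4.34 in A19U and 26.0% ± 4.23 in WT (SD, n = 3 each).

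The other heterochronic miRNA family is that of lin-4. lin-4 itself was listed at 0, and its relative mir-237 had 20484, 23405 and 26331 CPM in A17U and 19519, 19690 and 23605 in A19U, against 27808, 25306 and 27483 in WT. The A19U libraries all lay below the WT libraries, while A17U replicate C lay inside the WT range. Within each letter the A17U library was below the WT library. The log2 fold change was −0.20 (adjusted p = 0.999 by edgeR) in A17U and −0.36 (SE 0.199, unadjusted p = 0.0800, adjusted p = 0.679 by edgeR) in A19U, so neither passed the test.

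**Figure D2:**
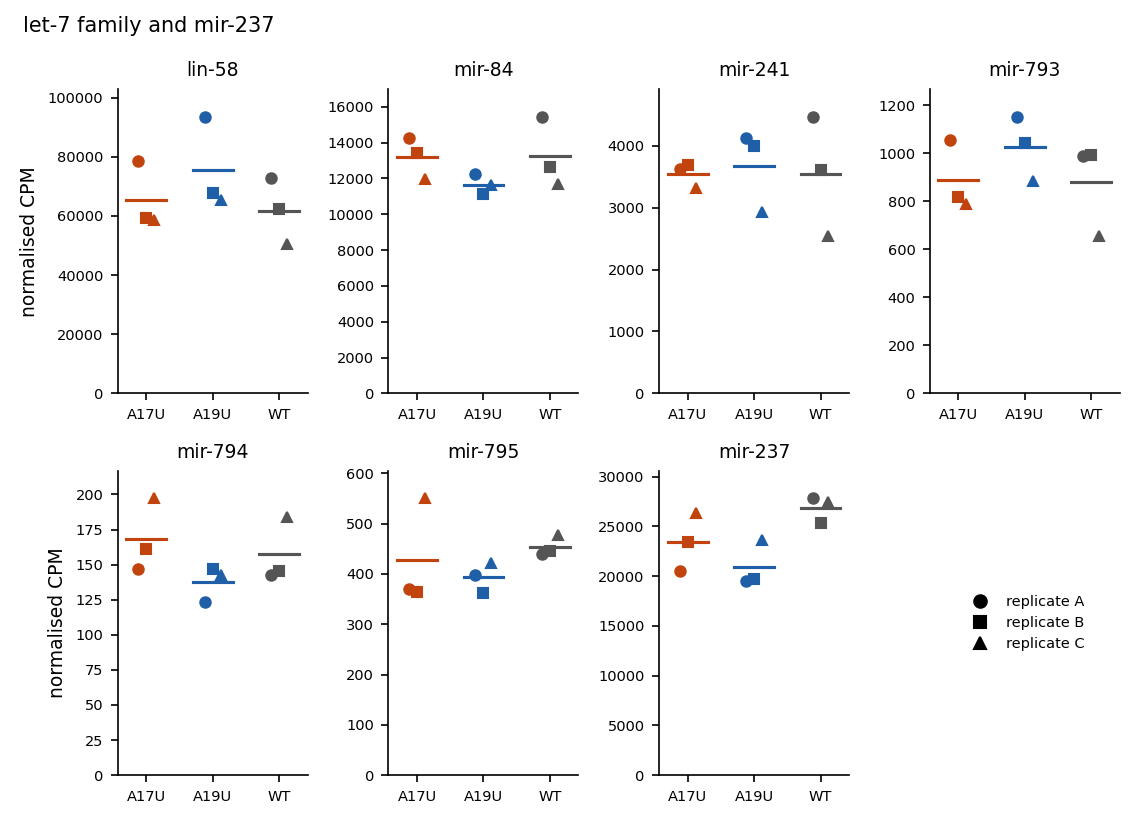
Normalised CPM (linear axes from 0) of the let-7 family members other than let-7 and of mir-237, by library; symbols are replicates and bars are group means (n = 3). The groups overlap for lin-58, mir-84 and mir-241, and the mir-237 values of A19U, 19519 to 23605, lie below those of WT, 25306 to 27808.

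In A17U none of the 129 other miRNAs passed an adjusted p of 0.05 against WT by edgeR, and 1 had an unadjusted p under 0.05. DESeq2 called 0 as well, with 5 under 0.05 unadjusted. The libraries of A17U and WT did not overlap for 9 miRNAs, which is 6.98% of those tested, with 2 higher and 7 lower in A17U. Of 107 miRNAs with a mean of at least 10 CPM, 99 lay within 0.5 of 0 on the log2 scale. In the fit of all 45 libraries the typical standard error of a miRNA above 1000 CPM was 0.31 (median of 42 miRNAs), so small changes could not be told apart from 0. That fit held U9G replicate B, and standard errors depended on the fit. For mir-84 in A17U the error was 0.146 without U9G replicate B and 0.166 in a fit of the 9 libraries. It was 0.237 with total counts and all 45 libraries.

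The smallest p in A17U belonged to mir-788 on chromosome X, with 696, 1072 and 930 CPM in A17U against 1113, 1621 and 1850 in WT. All A17U libraries were lower than all WT libraries, and the log2 fold change was −0.76 (SE 0.345, unadjusted p = 0.0335, adjusted p = 0.999 by edgeR). Its levels in A19U, at 1216, 1402 and 1391 CPM, were above those in A17U and inside the WT range. mir-235, which keeps blast cells quiescent in starved first-stage larvae, was picked after its values were seen and had 6867, 3644 and 5827 CPM in A17U against 3397, 2359 and 3039 in WT. The groups did not overlap, but the libraries of A17U differed widely among themselves, and the log2 fold change of 0.89 (SE 0.613) had an adjusted p of 0.999 by edgeR. mir-4937 was higher in all A17U libraries at a very low level, with a mean of 4.75 ± 0.596 CPM in A17U against 1.73 ± 1.51 CPM in WT (adjusted p = 0.999 by edgeR).

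**Figure D3:**
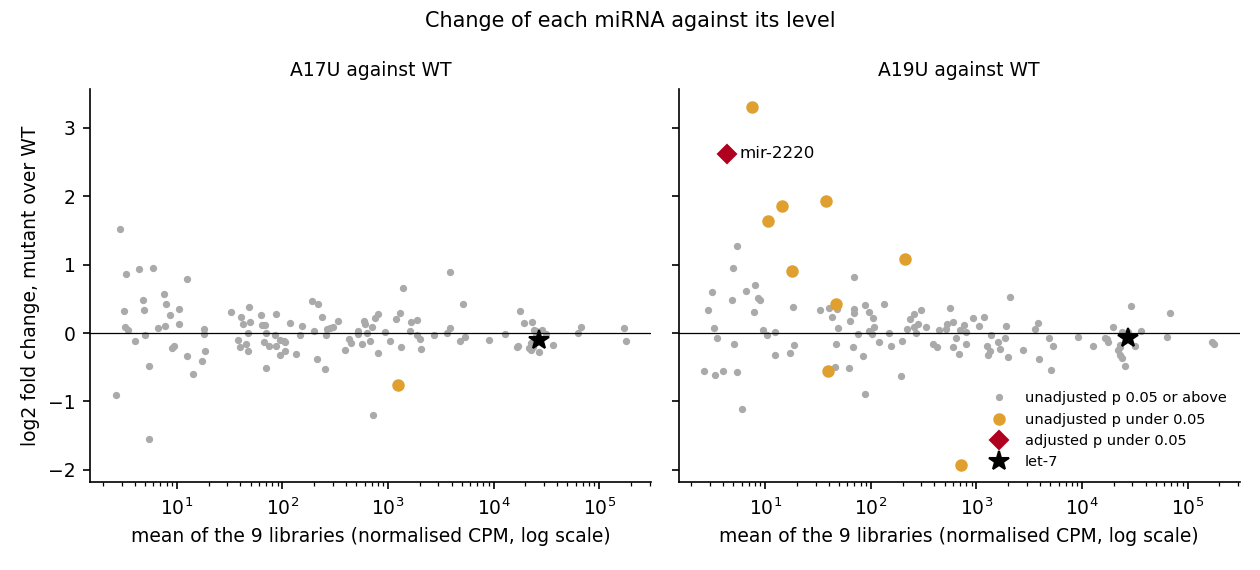
The log2 fold change of the mutant over WT is plotted against the mean normalised counts per 1000000 (CPM) of the 9 libraries (log scale) for each miRNA tested, except mir-8200, which was at 0 in all WT libraries. Points past an unadjusted p of 0.05 are orange and past an adjusted p of 0.05 red; A17U has 1 point of the first kind and none of the second, and A19U has mir-2220 in red.

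In A19U 1 miRNA passed the test against WT, mir-2220, which was higher (0.775% of 129), and 11 had an unadjusted p under 0.05 (8.53%), of which 9 were higher and 2 lower. DESeq2 called 3. The libraries of A19U and WT did not overlap for 18 miRNAs, which is 14% of those tested, with 11 higher (8.53%) and 7 lower in A19U. Of the 107 miRNAs with a mean of at least 10 CPM, 94 lay within 0.5 of 0 on the log2 scale. Of the 27 miRNAs that differed by more than 0.5, 14 had a mean under 10 CPM and another 8 a mean of 10 to 100 CPM.

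The mir-2220 gene is on chromosome X (1873827 to 1873884, plus strand, WBcel235), far from let-7. It was counted 11, 10 and 31 times in A19U, 6, 5 and 4 times in A17U, and 5, 1 and 1 times in WT. Its level was 4.98, 4.06 and 17.7 CPM in A19U and 4.63, 2.25 and 1.69 CPM in A17U, against 2.48, 0.565 and 0.787 CPM in WT. All A19U libraries were above the WT libraries, and A19U replicate C was far above the other A19U libraries. The log2 fold change in A19U was 2.62 (SE 0.651, adjusted p = 0.0385 by edgeR), with a 95% interval of the fold of 2.46 to 15.4, and in A17U it was 0.94 (adjusted p = 0.999 by edgeR). The call in A19U was lost without A19U replicate C (1.65, adjusted p = 0.427), without WT replicate B (2.24, adjusted p = 0.353), without WT replicate C (2.43, adjusted p = 0.285), with the replicate letter as a block (2.51, adjusted p = 0.0551) and when the totals excluded let-7 (2.54, adjusted p = 0.0602). WT had the lowest mir-2220 level of the 15 genotypes, and A19U the 2nd highest after U18A. Set against the other 12 mutants in place of WT, A19U differed by a log2 fold change of 1.05 (adjusted p = 0.175 by edgeR).

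Several miRNA genes lie near mir-2220 on the same strand. Listed here were mir-4807 at 1872466 to 1872526, mir-4808 at 1872952 to 1873008 and mir-1018 at 1879458 to 1879513. They and mir-2220 are called the chromosome X group here, and other genes in that stretch are not part of it. The 4 miRNAs of the group summed to 17.7, 14.4 and 25.4 CPM in A17U and 49.8, 26.0 and 72.1 CPM in A19U, against 18.3, 18.6 and 22.0 CPM in WT. All A19U libraries exceeded all others, whereas A17U and WT overlapped. mir-1018 had 18.1, 11.0 and 28.6 CPM in A19U and 5.40, 6.75 and 7.62 CPM in A17U, against 8.43, 6.22 and 3.15 CPM in WT. A19U again lay wholly above WT, with a log2 fold change of 1.63 (SE 0.461) that just missed the threshold (adjusted p = 0.0517 by edgeR) and passed it with DESeq2 (adjusted p = 0.0454). With 1 library left out, mir-1018 passed in 1 of 6 fits (adjusted p = 0.0139 to 0.503 by edgeR). It passed in 2 of 11 other alternatives. Against the other 12 mutants its log2 fold change in A19U was 0.81 (adjusted p = 0.201 by edgeR). WT had the lowest mir-1018 level of the 15 genotypes too, and A17U the 13th highest. A19U had the 3rd highest, at 19.2 CPM, after U18A at 24.7 CPM and A10U at 20.7 CPM. For mir-4808 A19U was also 3rd highest after U18A and A10U. mir-4808 averaged 9.43 ± 4.25 CPM in A19U against 4.00 ± 1.82 CPM in WT, and neither this miRNA nor mir-4807, with 12.7, 5.27 and 17.2 CPM in A19U against 5.45, 7.35 and 12.6 CPM in WT, passed the test.

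On chromosome IV, mir-2208.1 at 1021772 to 1021832, mir-2208.2 at 1026580 to 1026640 and mir-2209.1 at 1027101 to 1027164 varied in the same A19U libraries. They are called the chromosome IV group here. Further mir-2209 genes at the same place had at most 5 counts in any of the 9 libraries and are not part of it. The sum of the group was 23.1, 32.0 and 23.3 CPM in A17U and 99.2, 23.9 and 247.7 CPM in A19U, against 31.7, 30.5 and 26.0 CPM in WT. A19U replicates A and C were high, and A19U replicate B was at the level of WT. mir-2208.1 had 13.6, 5.27 and 36.0 CPM in A19U against 2.48, 1.13 and 1.57 CPM in WT, a log2 fold change of 3.31 (SE 0.932, adjusted p = 0.0517 by edgeR and 0.0289 by DESeq2). With 1 library left out, mir-2208.1 passed in 1 of 6 fits (adjusted p = 0.0139 to 0.442 by edgeR). It passed in 4 of 11 other alternatives, DESeq2 among them. mir-2208.2 and mir-2209.1 had log2 fold changes of 1.92 and 1.87 (adjusted p = 0.377 by edgeR for both). In A17U the 3 members had a median log2 fold change of −0.10. mir-2208.1 and mir-2208.2 are copies by name, and how reads shared between them were counted is not stated, so that their separate values are uncertain.

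**Figure D4:**
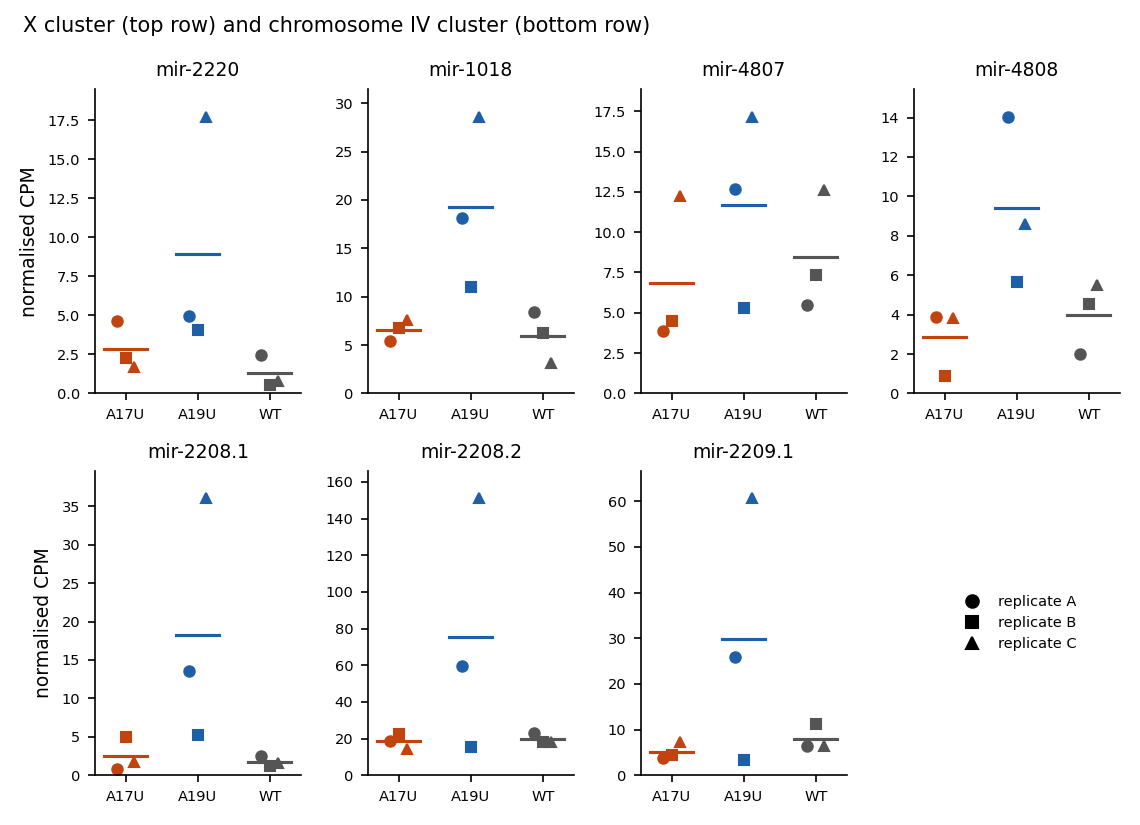
Normalised CPM (linear axes from 0) by library of the 4 miRNAs of the group on chromosome X (top row) and the 3 of the group on chromosome IV (bottom row). Symbols are replicates and bars are group means (n = 3). A19U replicate C is the highest library for mir-2220, mir-1018 and mir-4807, at 17.7, 28.6 and 17.2 CPM. It is also the highest for all 3 members of the chromosome IV group, at 36.0, 151 and 60.6 CPM, but not for mir-4808.

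Both groups also varied in other genotypes. For mir-2208.2, A10U averaged 184.1 ± 204.1 CPM, U18A 86.7 ± 54.5 CPM and A19U 75.4 ± 69.1 CPM, while A17U averaged 18.5 ± 4.06 CPM and WT 19.7 ± 2.72 CPM (SD, n = 3 each). Set against the other 12 mutants, A19U was higher in the 3 members of the chromosome IV group, which were its only calls (2.33% of 129), with log2 fold changes of 1.83, 1.72 and 1.88 for mir-2208.1, mir-2208.2 and mir-2209.1 (adjusted p = 0.0351 by edgeR for each). A19U replicates A and C carried these calls: replicate B, with 15.4 CPM of mir-2208.2 and 3.24 CPM of mir-2209.1, lay below the mean of the other mutants, 36.1 and 12.8 CPM, and the libraries overlapped for all 129 miRNAs (0% apart). The 3 calls were lost with DESeq2 (adjusted p = 0.0581), with a block for the replicate letter (0.0598), without A19U replicate A (0.0808) and without A19U replicate C (0.956). A17U and A19U pooled were lower than A10U in the same 3 miRNAs, again the only calls (2.33% of 129), with log2 fold changes of −2.37, −2.30 and −2.22 (adjusted p = 0.0361 by edgeR for each). All 3 calls were lost with a block for the replicate letter (adjusted p = 0.0695), with total counts (0.0591), with no filter (0.0710), and when any 1 of the A17U libraries or A19U replicate A or B was left out (0.0745 to 0.162), and they held without A19U replicate C (0.00652). In that comparison 11 miRNAs had an unadjusted p under 0.05 (8.53%), and the libraries did not overlap for 4 (3.1%). The A10U libraries spanned 20.6 to 413 CPM for mir-2208.2 and overlapped those of A17U and A19U.

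mir-44 on chromosome II, at 11890023 to 11890118, had 489, 314 and 237 CPM in A19U against 147, 181 and 161 CPM in WT. All A19U libraries were higher, with a log2 fold change of 1.09 (SE 0.448, adjusted p = 0.377 by edgeR). mir-232 was also higher in every A19U library, with 57.1, 62.9 and 50.3 CPM against 43.1, 41.8 and 41.7 CPM in WT (log2 fold change 0.43, adjusted p = 0.377 by edgeR). mir-2214 had 139, 334 and 531 CPM in A19U against 464, 754 and 2588 CPM in WT. WT replicate C stood far above the other WT libraries, the ranges of the groups overlapped, and the log2 fold change was −1.92 (adjusted p = 0.382 by edgeR). Within each letter the A19U library was lower than the WT library, and with the letter as a block the log2 fold change was −1.81 (adjusted p = 0.0551, the lowest over its alternatives, which reached 0.995). Of the 129 miRNAs, 47 (36.4%) lay on 1 side of WT in all 3 letters in A19U, and 37 (28.7%) in A17U. mir-800 did not pass the test but was lower in all A19U libraries, at 17.2, 37.3 and 41.2 CPM against 50.1, 46.3 and 43.3 CPM in WT. mir-8200 was counted 0, 14 and 1 times in A17U and 25, 3 and 0 times in A19U, against 0 in all 3 WT libraries.

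Pooled against WT, A17U and A19U gave 0 calls of 129 by edgeR (0%), with 6 at an unadjusted p under 0.05 (4.65%), and DESeq2 gave 0, also with 6. No miRNA kept the 6 mutant libraries apart from the 3 WT libraries (0% of those tested). Of the 107 miRNAs with a mean of at least 10 CPM, 102 lay within 0.5 of 0 on the log2 scale. Pooled against U18A, edgeR called 0 (0%), with 6 at an unadjusted p under 0.05 (4.65%), and DESeq2 called 0, with 6. The libraries stood apart for 1 of the 129, mir-229 (0.775%), which was lower in the pooled mutants.

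The mutants were also set against each other. Between A17U and A19U edgeR called 0 of 129 (0%), with 13 at an unadjusted p under 0.05 (10.1%), and DESeq2 called 0, with 15. Their libraries did not overlap for 23 miRNAs, which is 17.8% of those tested, with 9 higher and 14 lower in A17U. In a fit of only the 9 libraries of A17U, A19U and WT, mir-44 (adjusted p = 0.0245) and mir-246 (adjusted p = 0.0380) passed.

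mir-246 on chromosome IV, at 10940134 to 10940230, had 7816, 5598 and 6984 CPM in A17U against 3496, 3209 and 3696 CPM in A19U. The mutants did not overlap. WT had 6523, 4051 and 4578 CPM, all above A19U, with replicate A inside the A17U range and replicates B and C below it. The log2 fold change of A17U over A19U was 0.97 (SE 0.333, adjusted p = 0.140 by edgeR). A17U had the highest mean and A19U the 14th highest mean of mir-246 among the 15 genotypes. mir-240 had 1802, 1286 and 1608 CPM in A17U against 1086, 969 and 1015 CPM in A19U, without overlap (log2 fold change 0.61, adjusted p = 0.192 by edgeR). mir-44 went the other way, with 97.2, 139 and 140 CPM in A17U against 489, 314 and 237 CPM in A19U (log2 fold change −1.46, adjusted p = 0.131 by edgeR). mir-1018 was lower in A17U than in A19U in all libraries (log2 fold change −1.50, adjusted p = 0.131 by edgeR). mir-4811, a rare miRNA, averaged 10.4 ± 5.43 CPM in A17U and 2.44 ± 0.917 CPM in A19U (log2 fold change 2.07, adjusted p = 0.192 by edgeR).

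**Figure D5:**
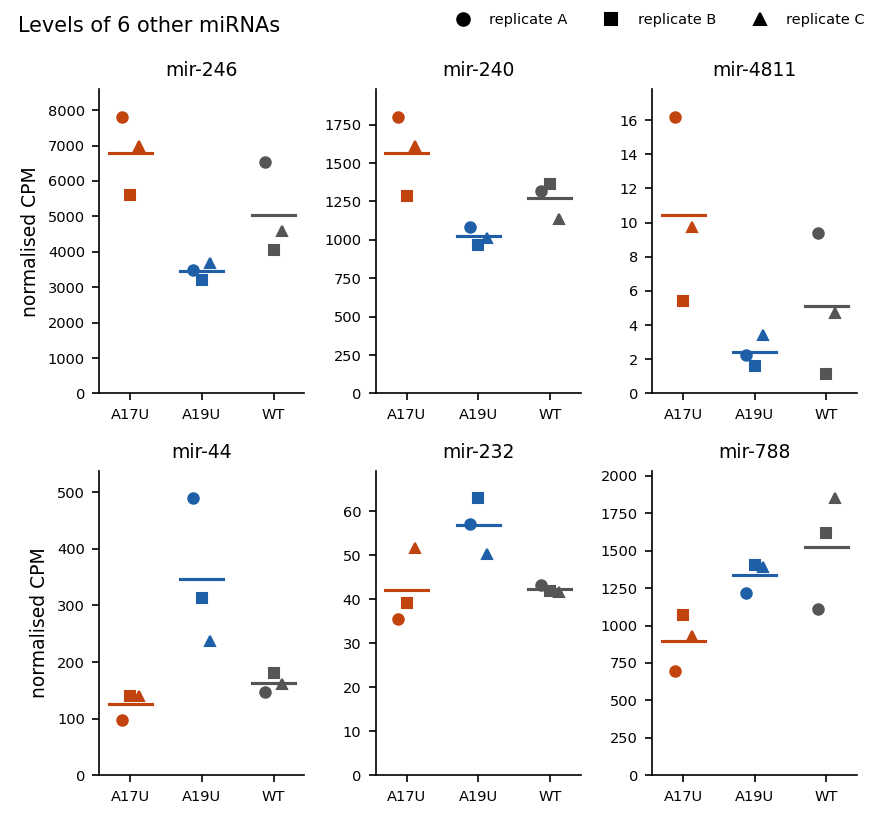
Normalised CPM (linear axes from 0) by library for 6 other miRNAs; symbols are replicates and bars are group means (n = 3). For mir-246 the A17U libraries lie at 5598 to 7816 and the A19U libraries at 3209 to 3696. WT, at 4051 to 6523, lies above A19U and overlaps A17U. For mir-44 the A19U libraries lie highest, at 237 to 489.

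No other family or marker list had a member past the test against WT. Of the mir-35 family, known from embryos and the germ line, 7 of 8 members were tested and none passed; their median log2 fold change was 0.13 in A17U and −0.21 in A19U. Their summed level was 16034, 11035 and 12747 CPM in A17U and 12221, 9640 and 11081 CPM in A19U, against 12831, 12521 and 13350 CPM in WT. All A19U sums were below the WT sums, and the A17U sums overlapped them. Of the mir-51 family, which is broadly expressed, 5 of 6 members were tested, with medians of −0.03 in A17U and −0.33 in A19U and no call. The summed neuronal markers lsy-6 and mir-791 ranged from 82.6 to 113 CPM in A17U and 88.7 to 106 CPM in A19U, against 58.0 to 102 CPM in WT. mir-228 ranged from 21621 to 25943 CPM in A17U and 27639 to 31013 CPM in A19U, against 26852 to 31751 CPM in WT, and A17U lay below the other 2 groups (log2 fold change over WT −0.27, adjusted p = 0.999 by edgeR). The 7 tested miRNAs within 1000000 bases of let-7 had medians of 0.07 in A17U and 0.09 in A19U, and none passed.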

How the data were processed

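The authors deposited read counts per miRNA gene and, per library, counts of all reads, mapped reads and both let-7 forms. The submitters' processing notes name cutadapt 1.9, Bowtie2 2.3.4.3, Subread 1.6.2 and featureCounts, without roles. The genome build, the annotation used for counting and the rule for the let-7 forms are not given in the sources used here. Deposited RPM and log2 columns were not used.

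Here the count of the encoded let-7 form replaced the let-7 row. All 45 libraries entered 1 edgeR 4.0.16 fit (R 4.3.3, quasi-likelihood test, TMM, filterByExpr by genotype), with Benjamini-Hochberg adjustment over all miRNAs tested and a threshold of 0.05. DESeq2 1.42.0 was an alternative. The script was tested on simulated data. Unlike the data here, those had independent libraries, 1 spread for all miRNAs, no shared replicate letters and no library standing apart. Exact permutation tests for let-7 used log2 normalised CPM, and correlations between libraries log2(normalised CPM + 1). The lowest and highest miRNA totals of the 9 libraries are given in the report. Wilson intervals and the limit of a count of 0 (3 counts) cover counting error only.

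Libraries of the same letter deviated together from their group means (all 9 same-letter correlations over 0.1, from 0.123 to 0.565; each library correlated best with its own letter), so the letters were taken to pair libraries. This comes from the data, and the labels do not say what a letter marks. The unpaired fit is the main one.

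The members, lists and tests were chosen with earlier results of these data known. Named were let-7, its family, the lin-4 family, the group around mir-2220, every miRNA past the threshold, the 10 smallest p per comparison, the 10 most abundant miRNAs, and members of the family and marker lists; any other is said to be picked after its values were seen.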

Additional observations from a re-analysis of the deposited data

How the results depend on the processing

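let-7 passed no test against WT or between the mutants under any alternative run. Its sign was kept in 42 and turned in 5 of the alternatives that kept all libraries of a comparison, and kept in 22 and turned in 5 of those that left out 1 library. It turned in A19U with total counts (0.0261), and in A17U against A19U with no filter (0.0307), at least 10 counts in every library (0.0034), a fit of the 9 libraries (0.0221) and let-7 out of the totals (0.059). Leaving out 1 library gave −0.26 to 0.12 in A17U, −0.26 to 0.13 in A19U, −0.26 to 0.12 pooled, and −0.0755 to 0.0745 between the mutants. The cause was not tested. The count of other miRNAs called in A19U against WT (1) became 3 with total counts, 3 with DESeq2, 3 against the other 12 mutants, 2 without U9G replicate B, and 0 with at least 10 counts, the replicate block, a fit of the 9 libraries or let-7 out of the totals, and ran from 0 to 3 when 1 library was left out; mir-2220 was removed by the 10-count filter and by the filter of the 9-library fit, so these tested fewer miRNAs. Between A17U and A19U the count (0) became 2 in the fit of the 9 libraries and 0 to 3 with 1 library left out, and reached 3 without A19U replicate B. Against U18A (0) it ran from 0 to 1, and reached 1 without A19U replicate C. Against A10U (3) it became 0 with total counts, no filter, at least 10 counts or the replicate block, and was 0 in 5 of 6 leave-outs (range 0 to 3), the exception being A19U replicate C. For A19U against the other 12 mutants (3), alternatives chosen after seeing the data gave 0 with DESeq2, at least 10 counts or the replicate block, and 0 to 4 with 1 A19U library left out. In these comparisons and in A17U and the pooled mutants against WT, the replicate block changed no other call. The wild-type form was 15.3 reads per 1000000 miRNA reads in A17U and 36.8 in A19U.

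Among named miRNAs, small changes turned sign. Against the other 12 mutants A17U had −0.0212 for mir-1822, −0.0861 for mir-793, 0.11 for mir-237, −0.64 for mir-2220 and −0.69 for mir-1018, and the pooled mutants 0.0371 for mir-800 and −0.25 for mir-4808. In A17U mir-84 was 0.0267 with total counts, 0.0839 with no filter, 0.0797 with at least 10 counts, 0.00995 without U9G replicate B and 0.0358 in the fit of the 9 libraries; mir-241 was −0.0022 with the let-7 row, and mir-795 was 0.0215 with no filter. In A19U mir-241 was −0.0406 with let-7 out of the totals. Leaving out 1 library gave, in A17U, −0.061 to 0.26 for lin-58, −0.0739 to 0.16 for mir-84, −0.18 to 0.24 for mir-241, −0.14 to 0.15 for mir-793, −0.27 to 0.0225 for mir-795, −0.13 to 0.51 for mir-1018 and −0.92 to 0.17 for mir-4807; in A19U −0.15 to 0.27 for mir-241; and pooled −0.22 to 0.51 for mir-4807. With 3 libraries a group and few reads per rare miRNA, the depth limits miRNAs under about 10 CPM.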
